A study of Homo sapiens with 13 samples.

Results

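The high-mobility-group genes described here are 8 genes taken by name, HMGB1, HMGB2, HMGB3, HMGN1, HMGN2, HMGN3, HMGN4 and HMGA1, of 58581 genes in the RNA-seq table. They hold 145 of the 8100 distinct windows in the table of SRSF2 binding. The family was chosen by its windows in that table, whose counts and changes between WT and mutant SRSF2 were in view. HMG proteins are abundant, non-histone components of chromatin. The HMGB proteins carry HMG boxes that bend DNA and, in HMGB1, HMGB2 and HMGB3, a C-terminal tail rich in acidic residues. The HMGN proteins bind the nucleosome core and loosen chromatin packing, and HMGA1 holds AT-hooks that bind AT-rich DNA in the minor groove. HMGB1 is also known outside cells as a signal of tissue damage.

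The cells were HEL, a human erythroleukemia line that stably carried SRSF2, in its wild-type form (WT) or with P95H, a substitution recurrent in myelodysplastic syndromes. SRSF2 is an SR protein that binds exonic RNA and promotes exon inclusion, and P95H is known to shift its preference among related motifs. HITS-CLIP, which uses UV light to fix RNA to its bound protein and sequences what an antibody (here to Flag) pulls down, was done on 4 WT and 4 P95H samples that had received doxycycline (1 mcg/ml) for 36 hours. RNA-seq, with rRNA removed, covered 2 WT and 2 P95H samples after 48 hours of that dose, plus a single P95H sample whose label reads uninduced. Replicates are labelled biological, but separate cultures are not described, so p-values measure only the spread between these samples. In bulk RNA, fewer cells of a type and less RNA per cell cannot be told apart.

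RNA-seq libraries held 37414093 to 45005605 counts, and the 8 genes together took 0.225% to 0.285% of them. The share of mitochondrially encoded protein genes was 1.38% in both replicate 1 libraries and 4.14% to 4.50% in the other three libraries, so differences are also given between libraries of the same number. SRSF2 itself stood at 222 to 252 CPM (counts scaled to library size, with TMM factors) in the 4 libraries given doxycycline and reached 285 CPM in the one labelled uninduced. The erythroid and megakaryocytic transcription factor gene GATA1 stood at 123.9 to 160 CPM, whereas the T cell gene CD3E reached at most 0.022 CPM and the epithelial EPCAM had 0 counts in every library. Of 15 marker genes of other cell types 5 passed the filter on low counts, among them the T cell gene CD2 at 3.31 to 6.13 CPM and the myeloid LYZ at 6.84 to 11.4 CPM. All 10 HEL marker genes passed it, at levels from 0.507 CPM for HBZ to 808 CPM for ITGA2B. HBZ, at 0.507 to 2.65 CPM, and HBG1, at 3.90 to 8.36 CPM, lay as low as these genes of other cell types.

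SRSF2 binding differed between WT and P95H at HMGB1, HMGB2 and HMGB3 in the authors' deposited table, and every listed window of these 3 genes was lower in P95H. HMGB2 had 89 windows, HMGB1 had 38 and HMGB3 had 16, each spanning 20 or 21 nucleotides. HMGA1 had 2 windows, 1 lower and 1 higher in P95H. Of all windows listed, 77.7% were lower in P95H, against 144 of the 145 windows here. The table was in view when these genes were chosen and its windows overlap heavily, so these counts are a description and carry no test. HMGN1, HMGN2, HMGN3 and HMGN4 had no window. Because the table lists only windows that passed the authors' adjusted p of 0.05 and a 2-fold change, a gene without windows may be bound equally by both proteins or not at all.

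HMGB2, a protein of dividing cells and a component of the SET complex, had more windows than all but 3 of the 2384 genes in the binding table. The gene lies on chromosome 4 at 173331695 to 173335125, minus strand, GRCh38. Its 89 windows merged where they overlapped into 8 regions. The largest, from 173332099 to 173332208, held 48 windows whose near edges lay 404 to 493 nucleotides from the annotated 3′ end of the gene. Its highest window, 173332123 to 173332144, had a mean of 203.8 CPM in WT with a standard error of 176 and 50.3 CPM in P95H with a standard error of 41.7, a log2 change of -2.03 in the authors' deposited table (authors' adjusted p 2.62e-05). The WT mean exceeded the P95H mean by 153 CPM, less than the combined standard error of 181 CPM.

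Other HMGB2 regions had lower peak signal in the authors' deposited table. A region of 10 windows just downstream, 173332016 to 173332072, peaked at 16.0 CPM in WT (standard error 5.91) and 7.18 CPM in P95H (standard error 0.85), with a median log2 change of -1.21. That region also held the gene's largest change, -3.60, at 173332016 to 173332037, where WT signal was 1.01 CPM. The 3 windows from 173332210 to 173332248 had a median of -2.03 at no more than 1.56 CPM in WT, next to -1.96 in the main region. Further upstream, 11 windows from 173332954 to 173333004 had a median of -1.54 and 14 windows from 173333504 to 173333555 a median of -1.38. The last of these peaked at 25.5 CPM in WT (standard error 13.0) and 9.83 CPM in P95H (standard error 5.0). HMGB2 log2 changes thus ran from -3.60 to -1.12 along 1 gene, and 22 of its 89 windows reached 4-fold. The authors assigned 12 HMGB2 windows to a retained-intron transcript, HMGB2-002. These were interleaved with protein-coding ones: among 70 neighbouring windows starting within 5 nucleotides of each other, 18 were assigned to another transcript than their neighbour and 9 to another class, so the classes do not mark separate stretches of RNA.

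HMGB1 lies on chromosome 13 at 30456704 to 30617597, minus strand. Of its 38 windows, 36 formed 1 region of 140 nucleotides, 30461389 to 30461529, whose nearest edge was 4685 nucleotides from the annotated 3′ end. The highest window, 30461448 to 30461468, stood at 96.6 CPM in WT (standard error 84.7) and 14.3 CPM in P95H (standard error 12.7), with a log2 change of -2.80 in the authors' deposited table (authors' adjusted p 1.42e-08). The largest change lay in the upstream part of that region, -4.16 at 30461483 to 30461503, where signal was 14.6 CPM in WT (standard error 10.2) and 0.76 CPM in P95H (standard error 0.35). All 38 windows were at least 4-fold lower in P95H, with a range of -4.16 to -2.28 and a median of -2.74. The remaining 2 windows, about the position 30463579, had at most 1.71 CPM in WT.

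HMGB3, known for a role in blood stem cells, lies on chromosome X at 150980509 to 150990775, plus strand. Its main region, 150987817 to 150987889, held 14 of its 16 windows and peaked at 35.5 CPM in WT (standard error 30.7) against 5.31 CPM in P95H (standard error 4.14), a log2 change of -2.84 in the authors' deposited table. The first window of the region had 2.57 CPM in WT (standard error 1.57) and 0.00 CPM in P95H, listed with a log2 change of -8.10, which has no finite ratio behind it. Over the 16 windows the median was -2.83.

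HMGA1, on chromosome 6 at 34236873 to 34246231, plus strand, was the member with windows in both directions. At 34244822 to 34244842 the authors' deposited table gives 3.33 CPM in WT (standard error 2.12) and 1.48 CPM in P95H (standard error 1.08), a log2 change of -1.09 with an authors' adjusted p of 0.0456. At 34245981 to 34246001, 230 nucleotides from the annotated 3′ end, it gives 0.00 CPM in WT and 0.83 CPM in P95H (standard error 0.46), listed at 6.56. Both windows lie at low signal.

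**Figure D1:**
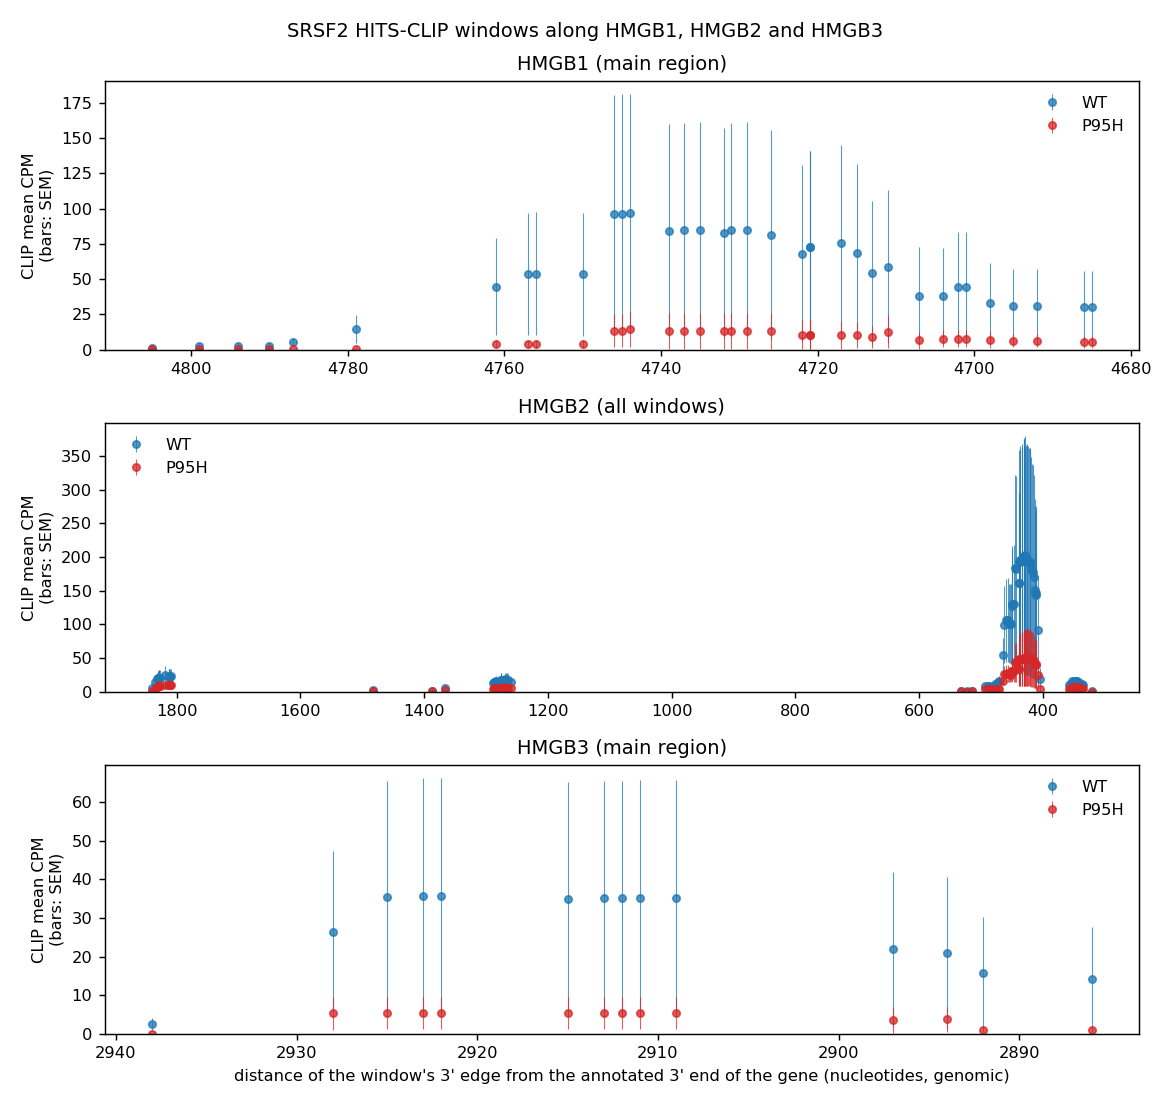
Mean HITS-CLIP CPM of WT (blue) and P95H (red) in each window of HMGB2 and in the main regions of HMGB1 and HMGB3, against genomic distance in nucleotides from the annotated 3′ end of the gene, with 5′ to the left; points are the authors' means and bars their standard errors. Signal peaks at 96.6, 203.8 and 35.5 CPM in WT for HMGB1, HMGB2 and HMGB3, and the WT bars at the peaks are nearly as long as the means.

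The standard errors show that the binding signal was uneven between libraries of 1 genotype. Each is assumed here to be the standard deviation of 4 libraries divided by the square root of 4. Its ratio to the mean then gives a lower bound on the share of the largest library, which may be higher. At the highest window this share was at least 82.8% of the WT signal for HMGB1, 81.2% for HMGB2 and 80.9% for HMGB3. In the P95H samples it was at least 83.9%, 76.6% and 70.6% at the same windows. Over all 145 windows the median of this lower bound in WT was 73.2%, against 65.7% over the whole table. By gene the median was 82.9% in HMGB1 and 81.0% in HMGB3, but 50.8% in HMGB2, below that of the whole table. The bound in WT exceeded 50% in 71.0% of the 145 windows, against 77.7% of the whole table. HMGB2 windows ranged widely in WT: the window 173332045 to 173332065 was among the most even, at 35.2% in WT and 26.1% in P95H, where equal libraries would give 25%, and the weak window 173332016 to 173332037 stood at 90.0%. The difference between the WT and P95H means exceeded 1 combined standard error in 73 of the 145 windows. This was 50.3%, against 50.5% of the whole table. HMGB2 held 56 of these among its 89 windows, HMGB1 12 among 38, HMGB3 4 among 16 and HMGA1 1 among 2. The shares in HMGB1 and HMGB3 thus lay below that of the whole table. At the highest window of HMGB1, HMGB2 and HMGB3 alike, the difference was less than 1 combined standard error. None of the 145 windows exceeded 2 combined standard errors (1.05% of the whole table). Values per CLIP library were not used here, so which library carried the signal is not shown.

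Processed pseudogenes of the HMGB genes appeared in the table as well. In all, 17 HMGB1 pseudogenes had 196 windows, 4 HMGB3 pseudogenes had 11 and HMGB2P1 had 15, and all 222 were lower in P95H, while the single window of HMGA1P3 was higher. HMGB1P5 on chromosome 3 and HMGB1P6 on chromosome 15 had 37 and 36 windows, nearly as many as HMGB1. Their highest windows stood at 96.5 and 96.3 CPM in WT and at 14.3 and 14.3 CPM in P95H in the authors' deposited table, next to 96.6 and 14.3 CPM at HMGB1.

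For 23 of the 38 HMGB1 windows a window of HMGB1P5 or HMGB1P6 matched in both means and both standard errors within 1%. Among windows of at least 10 CPM in WT, 21 of 31 in HMGB1 had such a match in another gene, none of 76 in HMGB2, none of 13 in HMGB3 and 9.77% in the whole table. HMGB1P11 reached 64.6 CPM in WT in the authors' deposited table, with 0 RNA-seq counts in all 5 libraries, where a count of 0 allows up to 3 counts in each. HMGB1P21 reached 24.2 CPM with 1 RNA-seq count in all. The placing of reads that align to several copies was not given in the sources used here, and its part in the HMGB1 windows was not tested. Since 23 of the 38 HMGB1 windows matched a copy, the HMGB1, HMGB1P5 and HMGB1P6 windows are not taken here as independent measurements.

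**Figure D2:**
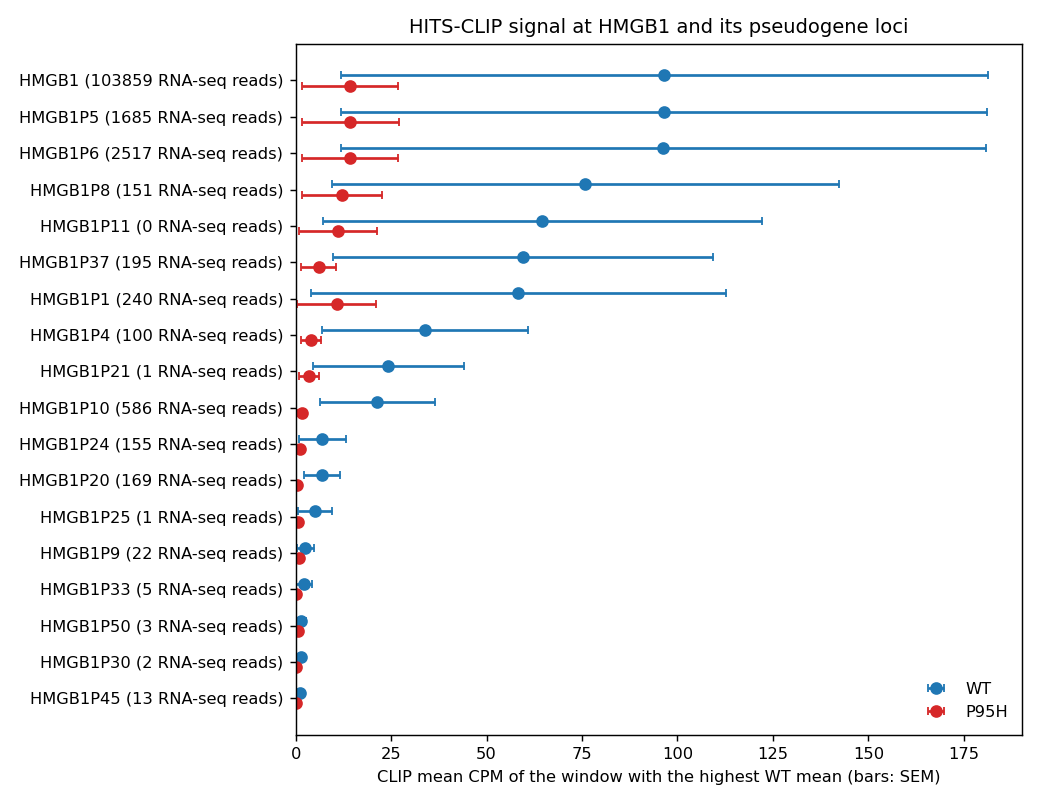
Highest HITS-CLIP window of HMGB1 and of 17 HMGB1 pseudogenes, as mean CPM (horizontal axis) in WT (blue) and P95H (red) with the authors' standard errors as bars; the count after each name is its RNA-seq reads summed over 5 libraries. HMGB1, HMGB1P5 and HMGB1P6 agree within 1% in both means (96.6, 96.5 and 96.3 CPM in WT), and HMGB1P11 has 64.6 CPM in WT with 0 RNA-seq reads.

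HMGN5, a nucleosome-binding protein with a long acidic C-terminal domain, had 27 windows in the authors' deposited table, all lower in P95H. Their log2 changes were -5.42 to -1.75, with at most 14.4 CPM in WT. Over these windows the lower bound on the share of the largest WT library had a median of 75.6%. The means differed by more than 2 combined standard errors in none of them. Of 17 other HMG and HMG-box genes, 9 had windows, 45 of these lower and 3 higher in P95H. The FACT subunits SUPT16H and SSRP1, which handle histones during transcription, had 5 and 3 windows, all lower. HMGB2's partners in the SET complex had 66 windows, all lower, of which ANP32A held 58. None of 7 linker histone genes and none of 8 genes for HMGB1 receptors had a window. Across all genes, windows were listed for 2384, and RNA-seq counts were given for 58581. All 7 linker histone genes but only 4 of the 8 receptor genes passed the filter on low counts for P95H against WT. TLR2 had 0 counts in every library, so its lack of windows says nothing about binding. Here, too, a gene without windows may be bound equally by both proteins or not at all. These counts therefore show no contrast between the gene lists.

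RNA levels of the 8 genes in P95H and WT lay close together, and all 8 passed the filter on low counts. HMGB1 stood at 549 and 502.8 CPM in WT replicates 1 and 2 and at 536 and 500.2 CPM in P95H replicates 1 and 2. HMGB2 stood at 504 and 486 CPM in WT and at 525 and 452 CPM in P95H. HMGB3 stood at 115.7 and 101.4 CPM in WT and at 115.0 and 109 CPM in P95H. For all 3 the P95H and WT values overlapped.

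HMGN1 lies on chromosome 21 at 39342315 to 39349647, minus strand, HMGN2 on chromosome 1 at 26472450 to 26475972, plus strand, HMGN3 on chromosome 6 at 79201245 to 79234738, minus strand, and HMGN4 on chromosome 6 at 26538405 to 26546254, plus strand. Among these nucleosome-binding genes, HMGN2 was the one whose groups did not overlap. It stood at 377 and 382 CPM in WT and 357 and 343 CPM in P95H. HMGN1 stood at 541 and 518 CPM in WT and at 486 and 519.8 CPM in P95H. HMGN3 had 48.6 and 39.8 CPM in WT and 46.0 and 42.2 CPM in P95H, and HMGN4 had 68.5 and 59.4 CPM in WT and 65.0 and 55.1 CPM in P95H. A separation like that of HMGN2 was seen in 24.7% of the 23970 genes kept over 5 libraries, and 1 of 8 genes here is no more than that share. These CPM are not scaled to transcript length and do not rank the genes against each other.

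In edgeR's quasi-likelihood test of P95H against WT none of the 8 genes passed, beside 0.0% of the 22007 genes tested. At an unadjusted p under 0.05 there were 227 genes, none of them among the 8, and DESeq2 called 0 genes with 100 at an unadjusted p under 0.05. HMGN2 had the largest difference, a log2 change of -0.11 (SE 0.10, edgeR adjusted p 0.9999). The others lay between -0.08 for HMGN4 (SE 0.13) and 0.06 for HMGB3 (SE 0.11), with a median over the 8 of -0.02 against 0.00 over all genes tested. HMGB1 was at -0.01 (SE 0.11) and HMGB2 at -0.01 (SE 0.12), beside binding changes of -2.80 and -2.03 at their highest windows. The CLIP and RNA samples were taken after 36 and 48 hours, respectively, so the values stand side by side without a test.

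Within same-numbered libraries HMGN2 was lower in P95H in both pairs, by -0.08 and -0.16 on the log2 CPM scale. HMGN4 was lower in both, by -0.08 and -0.11, and HMGB1 by -0.03 and -0.01. HMGB2, HMGB3, HMGN1, HMGN3 and HMGA1 had opposite signs in the pairs. A fit with the replicate number as a term called 0.382% of genes and none of the 8, with HMGN2 at -0.11 (edgeR adjusted p 0.772).

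**Figure D3:**
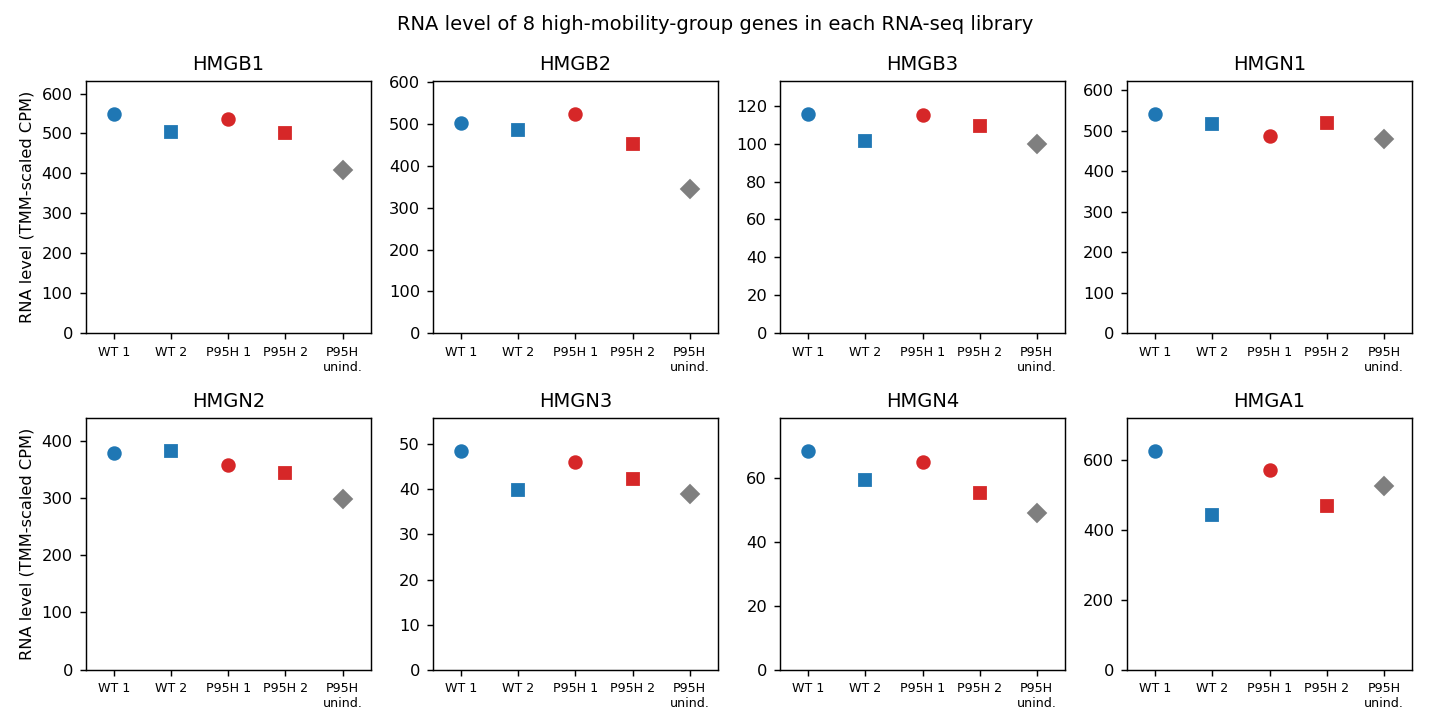
RNA level of each gene in TMM-scaled CPM (vertical axes from 0) in the 5 libraries, with WT in blue, P95H given doxycycline in red and the P95H library labelled uninduced in grey; circles are replicate 1 and squares replicate 2. HMGB2 is lowest in the library labelled uninduced, at 346 CPM, and HMGA1 is higher in both replicate 1 than in both replicate 2 libraries.

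The library labelled uninduced held the lowest level of 7 of the 8 genes, a position it took for 21.4% of all genes kept. HMGB2 stood at 346 CPM there, below the 452 to 525 CPM of the other libraries. HMGB1 stood at 409 CPM, below 500.2 to 549 CPM. HMGN2 had 299 CPM against 343 to 382 CPM, and HMGN4 had 49.2 CPM against 55.1 to 68.5 CPM. HMGB3 at 99.8 CPM, HMGN1 at 478 CPM and HMGN3 at 38.9 CPM lay just under their next lowest libraries. HMGA1, at 525 CPM, lay inside the range of the others. With 1 library in this group, its own spread is unknown.

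The comparison of P95H given doxycycline with that library used the spread of the replicated groups and shares its P95H libraries with the comparison above. EdgeR's test called 0.0% of 23970 genes and none of the 8, with 818 genes at an unadjusted p under 0.05, HMGB2 and HMGB1 among them. DESeq2 called 8 genes, none of the 8 members. HMGB2 had a log2 change of 0.50 (SE 0.15, edgeR adjusted p 0.972) and HMGB1 of 0.34 (SE 0.14, edgeR adjusted p 0.972). HMGN4 was at 0.29 (SE 0.17) and at 0.18 without P95H replicate 1, HMGN2 at 0.23 (SE 0.13) and HMGA1 at -0.01 (SE 0.23). The median over the 8 genes was 0.20 against 0.00 over all genes tested. For HMGB1 the unadjusted p lay just under 0.05 in the edgeR fit. It lay above 0.05 with DESeq2, with pseudogene counts added or without either P95H replicate, and below it in other settings.

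A term for replicate number changes the call of HMGB2. With the library labelled uninduced placed beside the replicate 2 libraries, 3.61% of genes were called and HMGB2 was higher in P95H given doxycycline by 0.43 (edgeR adjusted p 0.00133), as the 1 member called. With it placed beside the replicate 1 libraries, 15.4% of genes were called, among them HMGB2 at 0.56 (edgeR adjusted p 4.95e-07), HMGB1 at 0.40 (edgeR adjusted p 0.000843) and HMGN4 at 0.40 (edgeR adjusted p 0.00527). The labels place it in neither, and these fits leave 1 residual degree of freedom. Its mitochondrial share, 4.14%, lay near the 4.50% and 4.30% of the replicate 2 libraries and above the 1.38% of replicate 1. HMGA1 was at -0.22 with the library beside replicate 2 and at 0.18 beside replicate 1. In HMGB2 the WT libraries stood above that library by 0.54 and 0.49 on the log2 CPM scale, and the cause was not tested. SRSF2 counts were not lower in the library labelled uninduced, so they do not show the labelled induction. The HEL marker genes had a median log2 change of -0.22 in the same comparison, with 9 of 10 negative, and their part in the HMGB2 value was not tested.

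**Figure D4:**
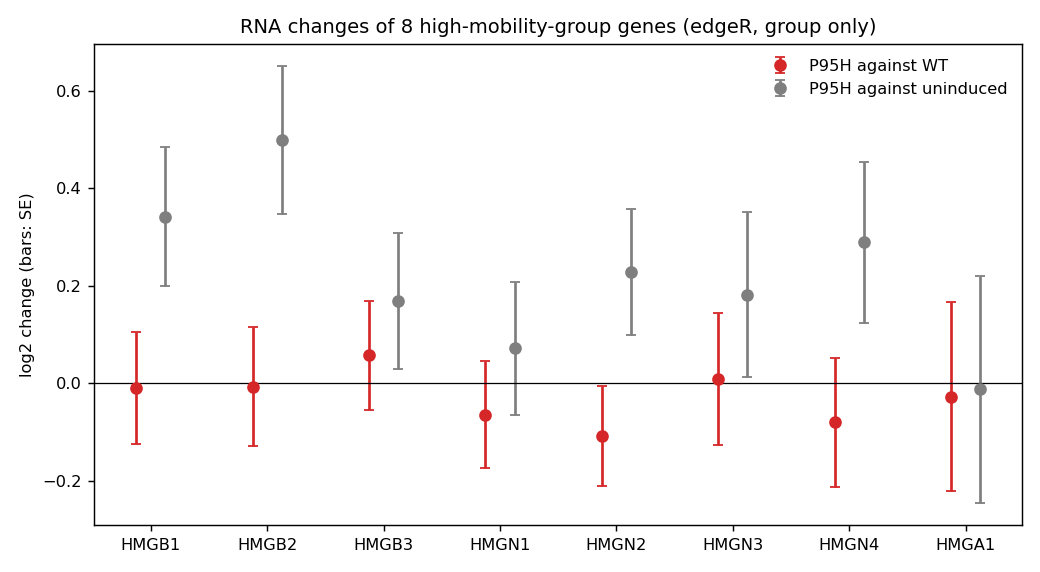
Log2 change of each gene in the edgeR fits on group alone (vertical axis), for P95H against WT in red and P95H against the library labelled uninduced in grey, with bars of 1 SE. Values against WT lie between -0.11 and 0.06, and HMGB2 at 0.50 and HMGB1 at 0.34 stand highest against the library labelled uninduced.

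HMGA1 differed between the replicate numbers. It stood at 628 and 572 CPM in the WT and P95H replicate 1 libraries and at 442 and 470 CPM in the replicate 2 libraries. Read from the 4-library fit with genotype as a covariate, replicate 2 was lower than replicate 1 by -0.39 on the log2 scale (SE 0.08, edgeR adjusted p 0.000206). HMGN4 was also lower in replicate 2, at -0.22 (SE 0.08, edgeR adjusted p 0.0463), and the other 6 did not pass. This term called 19.2% of all genes, so 2 of 8 lies near the background. Without regard to a test, both replicate 2 libraries given doxycycline lay below both replicate 1 libraries for 6 of the 8 genes (all but HMGN1 and HMGN2), against 28.8% of the genes kept. The term was read after the levels of HMGA1 had been seen, and this fit, too, leaves 1 residual degree of freedom. In P95H against WT HMGA1 was at -0.03 (SE 0.19), the largest SE of the 8 genes.

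Genes with the most similar RNA profile were ranked by the root mean square distance between log2 CPM profiles over the 5 libraries, each centred on its mean, among the 6064 genes whose mean log2 CPM was 5 or more. For HMGB1 they were COPS4 (0.0175), BZW1 (0.0212) and AP3S1 (0.0216). For HMGN2 they were NRAS (0.0130), SYF2 (0.0132) and ZCCHC10 (0.0158), and for HMGA1 SWAP70 (0.0310), VAMP8 (0.0312) and IDI1 (0.0335). The 5 libraries include the difference between replicate numbers, and how common such near profiles are was not counted. The distances carry no test.

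Other chromatin genes and the HMGB1 receptor genes showed no calls in either comparison on group alone. Of the 17 other HMG and HMG-box genes, 15 were tested in P95H against WT with a median log2 change of -0.05, and CIC, a repressor with an HMG box, had the largest value at -0.14 (SE 0.15). All 7 linker histone genes were tested, with a median of -0.04. The 5 SET complex genes had a median of -0.02. Of the 8 receptor genes 4 were tested, with a median of 0.24. CD24 had the largest value, 0.41 (SE 0.96), at no more than 1.60 CPM, and TLR4, an HMGB1 receptor, was at 0.33 (SE 0.19). Against the library labelled uninduced the linker histone median was 0.23, the other HMG median 0.10 and the SET complex median 0.10, while CIC stood at -0.52 (SE 0.18, edgeR adjusted p 0.972).

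Pseudogene copies took a small share of the RNA-seq counts. Counts at 48 HMGB1 pseudogenes summed to 6.31% of those of HMGB1, counts at 29 HMGB3 pseudogenes to 4.05% of HMGB3 and counts at 38 HMGN2 pseudogenes to 3.83% of HMGN2. Adding them to the member left HMGB1 at 0.33 and HMGN2 at 0.22 against the library labelled uninduced. How RNA-seq reads that align to several copies were counted was not given in the sources used here. These values therefore do not measure the reads that the copies share. HMGN3 overlaps the antisense gene HMGN3-AS1 over 1021 bases, and 49 to 77 counts per library fell to the latter.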

How the data were processed

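HEL cells were profiled by HITS-CLIP and RNA-seq in 13 samples, grouped by their titles. The authors deposited raw counts per Ensembl gene. The authors' deposited table of binding holds, per the file headers, the log2 change of P95H over WT, an adjusted p-value (FDR) and mean CPM per genotype with standard errors. No source used here gives the total behind CPM, the read counter or its use of strand. Per the submitters' processing notes, TopHat2 2.0.14, STAR 2.5.3a, GRCh38.p3 and edgeR were used, in roles not stated. The table's 8324 entries included 224 repeats of a position, none in these genes, which were left out. Windows that overlapped were merged by strand and direction. Coordinates are as deposited.

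Here, edgeR 4.0.16 in R 4.3.3 was applied to the counts (filterByExpr, TMM, quasi-likelihood test, two-sided, Benjamini-Hochberg over all genes, threshold 0.05), with DESeq2 1.42.0 as the alternative. Tested on simulated data, the edgeR test recovered a minority of the changes put in, so a gene that did not pass is not shown to be unchanged. SE is the change divided by the square root of the F statistic, and log2 CPM used a prior count of 2. Binding was summarised in Python 3.11.15 with pandas 2.3.3. In all, 157 pseudogenes were matched by symbol, 10 of them by a newer symbol. The genes named were the 8 members, up to 4 of each list by size of change, and the 3 nearest profiles. The members and lists were chosen with earlier results of these data known. SRSF2 motifs were not counted, as window sequences were not used here. No per-sample column was left unused.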

Additional observations from a re-analysis of the deposited data

How the results depend on the processing

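The binding values rest on 4 libraries a genotype whose spread is known only from the standard errors, and the RNA comparisons on 2 or 1 libraries a group. At an authors' adjusted p of at most 0.01, 132 member windows lower in P95H remained listed, and at a change of at least 4-fold 76 did, from 144. Merging across gaps of 20 nucleotides gave 12 regions in place of 14. With low counts left unfiltered, edgeR gave 15 calls for P95H against WT (2 up, 13 down) and 92 for P95H against the library labelled uninduced (16 up, 76 down), where DESeq2 called 8 (3 up, 5 down). With the replicate block, P95H against WT had 84 calls (41 up, 43 down), none among the members. Deviations from the group means ran together in libraries of the same number (correlation 0.474 across genes), but with 2 pairs and no label for the number, the block rests on the number alone. With the replicate block and the library labelled uninduced beside replicate 2, 866 genes (215 up, 651 down) and 1 member, HMGB2, were called. Beside replicate 1 these were 3685 (1184 up, 2501 down) and 3 members, HMGB1, HMGB2 and HMGN4, and HMGA1 turned to 0.18. Leaving out any 1 replicate gave 0 to 0 calls and 0 to 0 members in both comparisons.

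For P95H against WT a stricter filter turned HMGB1 to 0.0032 and HMGB2 to 0.0069. Leaving out 1 replicate moved HMGB1 from -0.082 to 0.052, HMGB2 from -0.12 to 0.085, HMGB3 from -0.045 to 0.15, HMGN3 from -0.14 to 0.16, HMGN4 from -0.21 to 0.025 and HMGA1 from -0.27 to 0.25. HMGN1 and HMGN2 kept a negative sign in each. Against the library labelled uninduced, HMGA1 turned to 0.010 with DESeq2 size factors, 0.010 with DESeq2 and 0.013 with a stricter filter, and ran from -0.14 to 0.12 without 1 replicate, while the other 7 kept a positive sign, HMGB2 from 0.41 to 0.60. Without P95H replicate 1 HMGN4 was at 0.18, from 0.29, and HMGN1, at 0.07, ran from 0.020 without P95H replicate 2 to 0.14 without P95H replicate 1. The cause was not tested. The motif counts planned for the windows were not run.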
